A study of Canis lupus familiaris with 36 samples.

Results

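MYB (ENSCAFG00000000230) was followed as a single gene, read by its identifier from a table of 30424 genes in CLBL-1, an established cell line grown from a canine diffuse large B-cell lymphoma. Poly-A RNA of this 1 line was sequenced after incubation with dimethyl sulfoxide (DMSO), Ibrutinib (Ibr), AS-605240 (AS) or both inhibitors (Ibr + AS) for 24, 48 or 72 h, which gave 12 groups of 3 libraries. Ibr inhibits Bruton's tyrosine kinase (BTK) and was used at 1 μM, and AS inhibits phosphoinositide 3-kinase (PI3K) gamma and was used at 5 μM. The Ibr + AS cells received both inhibitors at these doses, and the DMSO cells received the solvent at the share of volume that the combination held. All groups thus contained DMSO, and the share of DMSO in the cells given 1 inhibitor is not given in the sources used here. The 3 replicates of each group were cells of passages labelled p121 (replicate 1), p126 (replicate 2) and p128 (replicate 3), so the spread between them is that of repeat cultures of 1 line and not of dogs.

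MYB encodes c-Myb, a transcription factor that binds DNA and recruits the coactivators EP300 and CREBBP. It keeps blood progenitors dividing, is needed for early B- and T-cell development, and usually falls as blood cells mature. Signals from the B-cell receptor run through BTK and PI3K to the kinase AKT and to genes of growth and survival, and both inhibitors act on this route.

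Between 9941919 and 14703839 reads per library lay on genes, and MYB held between 180 and 922 of them. Levels are given as counts per 1000000 reads (CPM) of a library size corrected with TMM factors, which ranged from 0.921 to 1.04. Ibr 72 h replicate 3, which the study set aside as an outlier, was kept out of the tests but is shown, so that Ibr at 72 h rests on 2 libraries. Sample-sheet numbers part the libraries into 2 sequencing runs (inferred), with all libraries of passage p121 in the first and all of passage p128 in the second. Of 9 B-cell markers, 3 could be paired with identifiers, and their mean levels were 150 CPM for TNFRSF13C, 3290 CPM for DLA-DRA and 92.8 CPM for TCF4. All 6 paired T-cell markers stayed below a mean of 1 CPM. In bulk RNA, fewer cells with MYB and less MYB per cell cannot be told apart.

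MYB rose with incubation time in DMSO alone. At 24 h, it stood at 31.4, 28.5 and 30.1 CPM in passages p121, p126 and p128. At 48 h, the same passages held 38.8, 35.6 and 38.3 CPM, and at 72 h 62.9, 53.3 and 59.3 CPM. The 3 incubation times did not overlap, and passage p126 was the lowest at each of them. The log2 fold change (log2 FC) between 72 h and 24 h was 0.93 (SE 0.0766, adjusted p = 3.08e-09), or 1.9 times the 24 h level. All adjusted p-values are Benjamini-Hochberg values over all genes tested, from edgeR's quasi-likelihood test with passage as a term, and a gene was called at an adjusted p of at most 0.05. In this comparison, 36.7% of all genes tested were called, and 94.4% of the 10780 genes that averaged 1 CPM or more had a lower log2 FC than MYB. From 48 h to 72 h, MYB rose by a log2 FC of 0.61 (SE 0.0751, adjusted p = 2.49e-06), where 27.5% of genes were called. From 24 h to 48 h, the log2 FC was 0.31 (SE 0.0795, adjusted p = 0.0165), where 7.48% of genes were called. That early call was less secure, since the adjusted p was 0.158 in a fit of all 35 libraries, 0.098 without replicate 1, 0.0659 without replicate 2 and 0.202 without replicate 3, although the log2 FC stayed between 0.30 and 0.32.

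**Figure D1:**
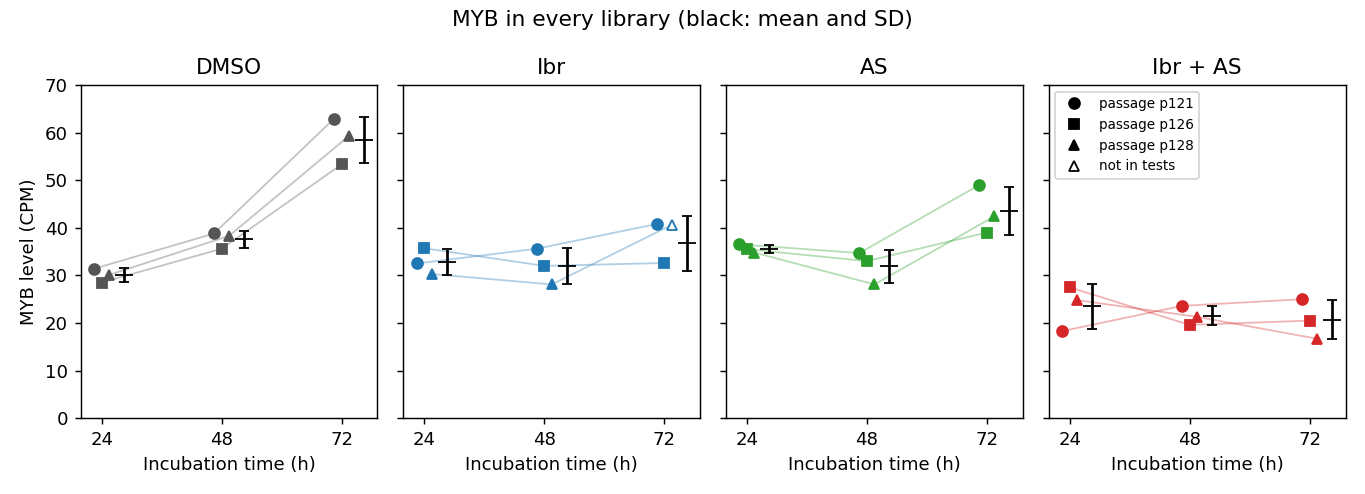
MYB level (CPM) in every library against incubation time (h), with 1 panel per treatment, symbols and thin lines for the passages, and black bars for the mean and SD of the tested libraries. DMSO climbs to between 53.3 and 62.9 CPM at 72 h, while all Ibr + AS libraries stay at or below 27.5 CPM; the open triangle is the Ibr 72 h library kept out of the tests.

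With Ibr, MYB stood at 32.5, 35.7 and 30.3 CPM at 24 h in the 3 passages, at 35.6, 32 and 28.1 CPM at 48 h, and at 40.8 and 32.6 CPM in the 2 tested libraries at 72 h. The 72 h library kept out of the tests held 40.6 CPM and lay inside the range of those 2. Ibr did not overlap DMSO at 72 h, where every Ibr library was the lower one, and overlapped it at 24 h. At 48 h, the highest Ibr library and the lowest DMSO library both stood at 35.6 CPM. Against DMSO, the log2 FC was 0.13 at 24 h (SE 0.115, adjusted p = 0.658) and −0.21 at 48 h (SE 0.115, adjusted p = 0.286). These comparisons called 9.46% and 10.7% of all genes, and MYB was not among them. With each replicate left out in turn, the log2 FC ran from 0.02 (without replicate 2) to 0.18 at 24 h and from −0.30 to −0.14 (without replicate 3) at 48 h. At 72 h, MYB fell with Ibr by a log2 FC of −0.69 (SE 0.126, adjusted p = 5.39e-05), where 18.2% of genes were called, and it was called in all 13 alternative fits.

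With AS, MYB stood at 36.5, 35.5 and 34.8 CPM at 24 h, at 34.7, 33 and 28.1 CPM at 48 h, and at 49, 39 and 42.4 CPM at 72 h. Every AS library lay above all DMSO libraries at 24 h and below all of them at 48 h and 72 h. The first of these differences did not pass the test, with a log2 FC of 0.25 (SE 0.114, adjusted p = 0.303) where 2.45% of genes were called. The difference at 48 h did not pass either (log2 FC −0.21, SE 0.113, adjusted p = 0.415; 3.65% of genes called). At 72 h, MYB fell with AS by a log2 FC of −0.41 (SE 0.108, adjusted p = 0.00691), where 13.7% of genes were called. The fall was present in each of the 3 passages, with log2 ratios to DMSO of −0.36, −0.45 and −0.48. The call was lost without replicate 2 (log2 FC −0.38, adjusted p = 0.0709), without replicate 3 (−0.40, adjusted p = 0.112) and without the 72 h libraries of replicate 3 (−0.40, adjusted p = 0.0525).

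The combination held MYB at its lowest levels. With Ibr + AS, MYB stood at 18.3, 27.5 and 24.8 CPM at 24 h, at 23.6, 19.6 and 21.3 CPM at 48 h, and at 25, 20.5 and 16.7 CPM at 72 h in passages p121, p126 and p128. All 9 libraries lay below every library of DMSO, Ibr and AS, of which the lowest was at 28.1 CPM. At 72 h, MYB was at 0.358 times the DMSO level, with a log2 FC of −1.48 (SE 0.117, adjusted p = 9.62e-14). In that comparison, 29.4% of genes were called and 7.75% were differentially expressed genes (DEGs), which also need an absolute log2 FC above 1, and MYB met both limits. Of the 10780 genes that averaged 1 CPM or more, 2.45% had a lower log2 FC. At 48 h, the log2 FC was −0.79 (SE 0.119, adjusted p = 7.55e-07), or 0.577 times DMSO, where 31.6% of genes were called. Both calls held in all 13 alternative fits.

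At 24 h, the fall of MYB with Ibr + AS was smaller and uneven. The log2 FC was −0.35 (SE 0.118, adjusted p = 0.0191), and 34.6% of all genes were called. Within passages, the log2 ratio to DMSO was −0.78 in passage p121, −0.06 in passage p126 and −0.28 in passage p128. The largest of these came from the library with the lowest level, and without replicate 1 the log2 FC was −0.16 with an adjusted p of 0.387. Without replicate 3, it was −0.39 with an adjusted p of 0.0611. At 72 h, the 3 passages gave −1.33, −1.37 and −1.83, and at 48 h −0.71, −0.86 and −0.85. The summed levels of paired cell-type markers also differed between Ibr + AS and DMSO. For the 3 paired B-cell markers, the sum was 4280 to 4650 CPM with Ibr + AS against 2810 to 2900 CPM with DMSO at 24 h. It was 3540 to 4440 against 3220 to 3510 CPM at 48 h, and 2330 to 3490 against 4380 to 4890 CPM at 72 h. By the mean levels given above, most of the B-cell marker sum was DLA-DRA. Of 4 myeloid markers, 3 could be paired, and their summed level was 228 to 322 CPM with Ibr + AS against 85 to 103 CPM with DMSO at 24 h, 180 to 208 against 76.4 to 93.9 CPM at 48 h, and 147 to 189 against 98.3 to 124 CPM at 72 h. With Ibr alone, the sum was 146 to 171 CPM at 24 h and 149 to 176 CPM at 48 h, times at which MYB was not called, and 125 to 139 CPM at 72 h. With AS alone, it was 98.2 to 110, 93.6 to 106 and 94.2 to 104 CPM. Most of this was LYZ, the lysozyme gene, with a mean of 129 CPM over the libraries, while CSF2RB had 12.4 CPM and TREM2 0.00919 CPM. Which cells of the culture held this RNA was not tested. The part of any change in cell types in the results for Ibr and for Ibr + AS was not tested either.

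Ordered by mean level, the 12 groups ran from 58.5 ± 4.86 CPM (SD, n = 3) for DMSO 72 h to 20.7 ± 4.16 CPM (SD, n = 3) for Ibr + AS 72 h. AS 72 h followed DMSO 72 h at 43.5 ± 5.07 CPM, and neither overlapped the next group in the order, although AS 72 h (39 to 49 CPM) overlapped Ibr 72 h (32.6 to 40.8 CPM) farther down. Then came DMSO 48 h at 37.6 ± 1.7, Ibr 72 h at 36.7 ± 5.73 (n = 2), AS 24 h at 35.6 ± 0.835, Ibr 24 h at 32.8 ± 2.72, AS 48 h at 31.9 ± 3.41, Ibr 48 h at 31.9 ± 3.73 and DMSO 24 h at 30 ± 1.46 CPM. Each of these 7 groups overlapped the next one within the 7, so neighbours in this stretch are not told apart by their libraries, while groups farther apart in it could be, such as DMSO 48 h and DMSO 24 h, which did not overlap. DMSO 24 h did not overlap the highest combination group, Ibr + AS 24 h at 23.5 ± 4.68 CPM. The 3 combination groups overlapped each other, with Ibr + AS 48 h at 21.5 ± 2.03 CPM. With Ibr + AS at 72 h, MYB was therefore also below DMSO at 24 h in every library, a pair of groups that was not tested.

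The direct comparisons asked whether the combination differed from each inhibitor alone. Against Ibr, MYB fell by log2 FCs of −0.47 at 24 h (SE 0.119, adjusted p = 0.00299), −0.58 at 48 h (SE 0.122, adjusted p = 0.000389) and −0.79 at 72 h (SE 0.133, adjusted p = 5.27e-05). These comparisons called 19.9%, 20.4% and 7.19% of all genes. Against AS, the log2 FCs were −0.59 at 24 h (SE 0.118, adjusted p = 0.000114), −0.58 at 48 h (SE 0.121, adjusted p = 0.000183) and −1.07 at 72 h (SE 0.119, adjusted p = 3.7e-09). Here 25.5%, 28.4% and 15.9% of genes were called, and at 72 h MYB was also past the DEG limits, as were 3.28% of genes. Of these 6 calls, 1 was lost in an alternative fit, namely that against Ibr at 24 h without replicate 1 (log2 FC −0.34, adjusted p = 0.0627).

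A difference between the single inhibitors was not detected for MYB. The log2 FC of Ibr against AS was −0.12 at 24 h (unadjusted 95% interval −0.35 to 0.10, adjusted p = 0.95), near 0 at 48 h (−0.23 to 0.23, adjusted p = 1) and −0.28 at 72 h (−0.53 to −0.04, adjusted p = 0.344). The shares of all genes called were 0.578%, 1.48% and 1.99%. The intervals leave room for a difference of up to −0.53 at 72 h, where Ibr was the lower group. The doses of the inhibitors differed, so these values compare the treatments as given.

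**Figure D2:**
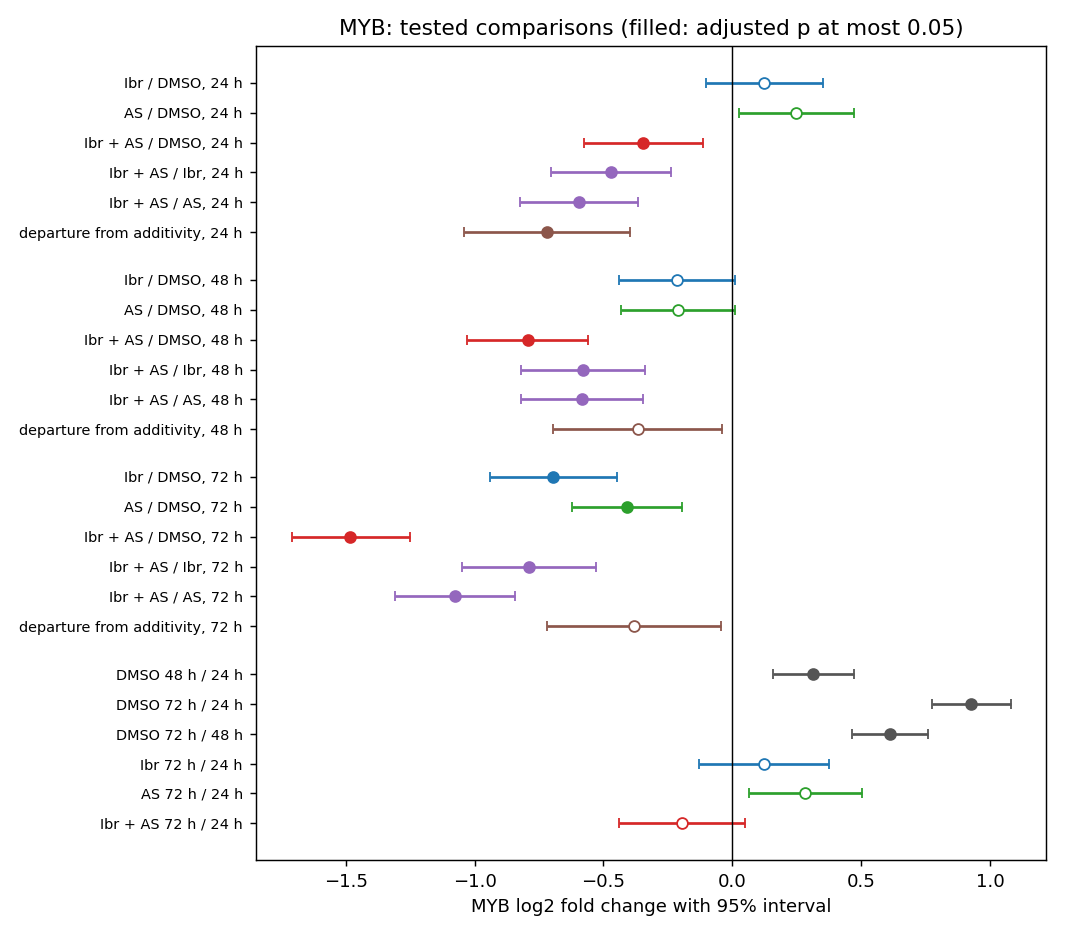
MYB log2 FC (x axis) with its 95% interval for the tested comparisons (y axis), filled where the adjusted p was at most 0.05. The comparisons of Ibr + AS with DMSO, Ibr and AS lie to the left of 0 at each incubation time, with the lowest value of −1.48 for Ibr + AS against DMSO at 72 h.

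Additivity was taken as log2 FCs of Ibr and AS that add up to that of Ibr + AS, and the departure from it was tested. In passages p121, p126 and p128 at 24 h, the additive level (Ibr times AS over DMSO) was 37.7, 44.3 and 35.1 CPM, and MYB with Ibr + AS was measured at 48.6%, 61.9% and 70.6% of it. MYB thus lay below the additive level in each passage, and the log2 FCs of Ibr and AS alone had been above 0. The departure was −0.72 (SE 0.165, adjusted p = 0.00594), where 3.84% of all genes were called, and 2.77% of these 10780 genes had a lower value. It was no longer called without replicate 2 (−0.73, adjusted p = 0.0818) or replicate 3 (−0.78, adjusted p = 0.0746).

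At 48 h, MYB with Ibr + AS was at 74.2%, 66.2% and 103% of the additive level, so that passage p128 did not fall below it. The departure was −0.37 (95% interval −0.69 to −0.04, adjusted p = 0.154), and 13.8% of genes were called. At 72 h, it was −0.38 (95% interval −0.72 to −0.04, adjusted p = 0.193), and 8.34% of genes were called. The measured levels were 78.6% and 85.9% of the additive ones in passages p121 and p126, and 57.5% in passage p128 if its Ibr library is used. Neither later departure passed the test, and none of the 13 alternative fits called them.

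**Figure D3:**
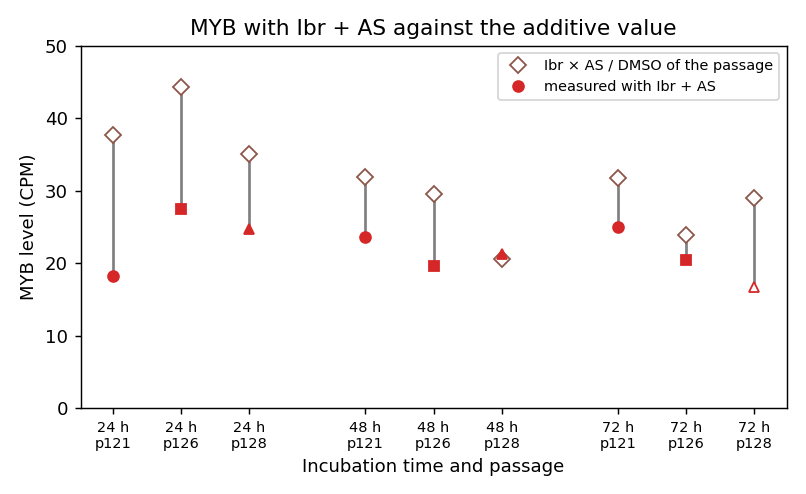
MYB level (CPM, y axis) measured with Ibr + AS (red) and the additive level of the same passage (open diamonds) for each incubation time and passage (x axis). The open triangle is the measured level of passage p128 at 72 h, where the additive level rests on the Ibr library kept out of the tests. The measured level lies below the additive one everywhere except in passage p128 at 48 h, and the gap is widest in passage p121 at 24 h, where the measured level was 48.6% of the additive one.

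The rise of MYB seen in DMSO was not called under any treatment. Between 24 h and 72 h, the log2 FC was 0.12 with Ibr (SE 0.129, adjusted p = 0.776; 4.46% of genes called), 0.28 with AS (SE 0.112, adjusted p = 0.15; 6% called) and −0.20 with Ibr + AS (SE 0.125, adjusted p = 0.421; 9.93% called). The passages went the same way with DMSO (log2 ratios of 1, 0.9 and 0.98) and with AS (0.43, 0.14 and 0.28). They went apart with Ibr, where the log2 ratio was 0.33 in passage p121, −0.13 in passage p126 and 0.42 in passage p128 with its library that was kept out of the tests. They also went apart with Ibr + AS, with 0.45 in passage p121, −0.42 in passage p126 and −0.57 in passage p128. Without replicate 1, the change with Ibr + AS was −0.49 and was called (adjusted p = 0.0247).

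The change of MYB against DMSO at 72 h differed from that at 24 h for every treatment. The difference was −0.82 for Ibr (SE 0.17, adjusted p = 0.000562), −0.66 for AS (SE 0.157, adjusted p = 0.00493) and −1.14 for Ibr + AS (SE 0.167, adjusted p = 9.02e-07). These tests called 14.9%, 8.56% and 25% of all genes, and the difference for Ibr + AS was past the DEG limits, as it was for 7.95% of genes. All 3 differences contain the same DMSO libraries and hence the rise in DMSO of 0.93. The call for Ibr was lost without replicate 2 (−0.66, adjusted p = 0.0795), and that for AS without replicate 2 (−0.60, adjusted p = 0.0779) and without replicate 3 (−0.63, adjusted p = 0.127).

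After group means were taken out, MYB deviated on average by 0.08 on the log2 scale in passage p121, by −0.024 in passage p126 and by −0.061 in passage p128. Passage p121 lay wholly in the first sequencing run and passage p128 wholly in the second, so passage and run cannot be told apart for them. In passage p126, all 24 h libraries and those of DMSO and Ibr at 48 h were in the first run. Its AS and Ibr + AS libraries at 48 h and all its 72 h libraries were in the second. Within passage p126, the run thus went with incubation time and, at 48 h, with treatment. With the run as a further term, every MYB call was as in the fit without it, but this term could be estimated only from passage p126.

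Partners and targets of c-Myb moved in both directions with Ibr + AS. The study's tables pair 1068 genes with symbols, many of them selected on these samples, and through them 9 of 29 listed partners, regulators and targets could be read. With Ibr + AS against DMSO, 3 rose, 2 fell and 4 were not called at 24 h. At 48 h, 2 rose, 2 fell and 5 were not called, and the counts at 72 h were the same. Over all genes tested, 17.4% rose and 17.2% fell at 24 h, 15.9% and 15.7% at 48 h, and 14.5% and 14.9% at 72 h. The median log2 FC of the 9 genes was 0.02, 0.12 and −0.01, beside 0.03, 0.01 and 0 over all genes.

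Among the targets, BCL2, which blocks apoptosis, went the way of MYB with Ibr + AS at the later times. Its log2 FC with Ibr + AS was −0.16 at 24 h (adjusted p = 0.374), −0.81 at 48 h (adjusted p = 7.47e-07) and −1.11 at 72 h (adjusted p = 5.99e-10), and in DMSO it rose from 24 h to 72 h by 0.55 (adjusted p = 6.62e-05). MYC, a driver of cell growth, went the other way at 24 h and 48 h, with log2 FCs of 1.39 (adjusted p = 1.05e-14) and 0.96 (adjusted p = 2.15e-10), and stood at −0.01 at 72 h (adjusted p = 1). In DMSO, MYC rose from 24 h to 72 h by 0.99 (adjusted p = 1.13e-09), a value close to that of MYB. BCL2 differed from MYB with the single inhibitors at 72 h, where MYB was called. There BCL2 stood at −0.06 with Ibr (adjusted p = 0.888) and −0.08 with AS (adjusted p = 0.725). The departure of BCL2 from additivity was called at 48 h (−0.68, adjusted p = 0.00414) and 72 h (−0.97, adjusted p = 0.000186), unlike that of MYB.

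Of the partners that regulate c-Myb, the kinase gene PIM1 rose with Ibr + AS by 0.80, 0.68 and 0.36 (adjusted p = 0.0261 at 72 h). PSIP1, which encodes a chromatin-bound coactivator, fell by log2 FCs of −0.38, −0.39 and −0.36 (adjusted p = 0.0011 at 72 h). CITED2, whose protein competes for EP300, rose by 0.72 at 24 h (adjusted p = 5.42e-07) and stood at 0.13 and −0.06 later. SND1, a coactivator gene, fell at 24 h (−0.27, adjusted p = 0.00602), and TAB1, which encodes an activator of the kinase TAK1, rose at 72 h (0.34, adjusted p = 0.00191). EP300 itself (0.15, 0.17 and 0.29) and TAB2, another TAK1 adaptor gene (0.02, 0.12 and −0.21), were not called at any time.

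**Figure D4:**
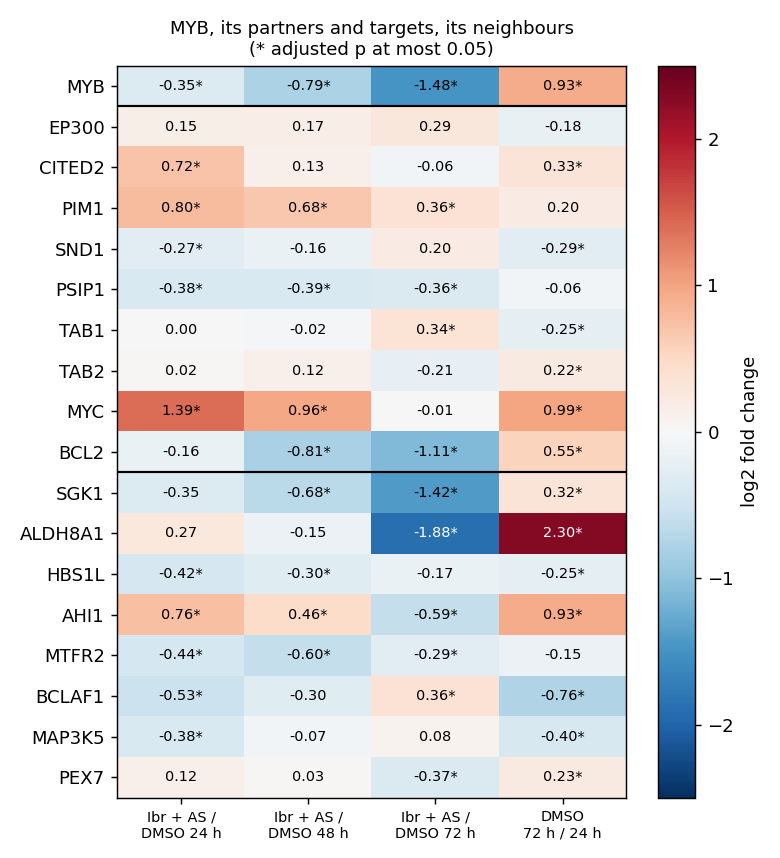
Log2 FC (colour and printed value) of MYB, its paired partners and targets, and its paired neighbours with at least 1 CPM (rows) for Ibr + AS against DMSO at 3 incubation times and for DMSO 72 h against 24 h (columns), with an asterisk at an adjusted p of at most 0.05. MYB runs from −0.35 to −1.48 with Ibr + AS, BCL2 from −0.16 to −1.11, and MYC from 1.39 to −0.01.

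The neighbours of MYB on the chromosome moved in both directions. In the RefSeq order of the UU_Cfam_GSD_1.0 assembly, used for names only, HBS1L lies on one side of MYB and AHI1 on the other. HBS1L, a gene of ribosome rescue, fell with Ibr + AS by −0.42 at 24 h (adjusted p = 4.77e-05) and −0.30 at 48 h (adjusted p = 0.00397) and stood at −0.17 at 72 h (adjusted p = 0.135). AHI1, a gene of the primary cilium, rose by 0.76 and 0.46 and fell at 72 h by −0.59 (adjusted p = 0.000526). In DMSO, AHI1 rose from 24 h to 72 h by 0.93, as MYB did, and HBS1L fell by −0.25. Whether reads of these genes overlap MYB was not tested.

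Farther away, ALDH8A1, which encodes an aldehyde dehydrogenase, fell at 72 h by −1.88 (adjusted p = 3.17e-09) and rose between 24 h and 72 h in DMSO by 2.30. SGK1, a kinase gene downstream of PI3K, fell at 48 h by −0.68 (adjusted p = 0.0274) and at 72 h by −1.42 (adjusted p = 6.56e-05). MTFR2 (mitochondrial fission) fell at all 3 times, by −0.44, −0.60 and −0.29, MAP3K5 (a stress kinase) fell at 24 h by −0.38, PEX7 (peroxisomal import) fell at 72 h by −0.37, and BCLAF1 (RNA processing) fell at 24 h by −0.53 and rose at 72 h by 0.36. SLC2A12 and MAP7 had mean levels of 0.125 and 0.372 CPM and were not called. In all, 10 of 11 listed neighbours were paired, and 1 rose and 5 fell at 72 h, with a median log2 FC of −0.23, where 14.5% of all genes rose and 14.9% fell and their median was 0. At 24 h, 1 rose and 4 fell (median −0.37), beside 17.4% and 17.2% of all genes (median 0.03). At 48 h, 1 rose and 3 fell (median −0.22), beside 15.9% and 15.7% of all genes (median 0.01). Since the neighbours were paired through tables with many genes selected on these samples, their counts are not independent evidence of a direction.

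Most of the listed cell cycle genes fell with Ibr + AS at 24 h and 48 h. They were paired through tables with many genes selected on these samples, so their counts are not independent evidence of a direction. Of 25 listed genes, all paired, 3 rose and 17 fell at 24 h and at 48 h (median log2 FC −0.45 and −0.46), and 3 rose and 12 fell at 72 h (median −0.17). Of all genes tested, 17.4% rose and 17.2% fell at 24 h, 15.9% and 15.7% at 48 h, and 14.5% and 14.9% at 72 h, with medians of 0.03, 0.01 and 0. The members that fell most at 72 h were CDC25C, the phosphatase of mitotic entry (−1.21, adjusted p = 1.13e-11), CDKN2B, an inhibitor of CDK4 and CDK6 (−1.02, adjusted p = 5.86e-07), and ATAD2, a chromatin factor (−0.68, adjusted p = 5.81e-07). Those that rose most were TCF19 (0.55), ASF1A, a histone chaperone gene (0.48), and CCND3, which encodes cyclin D3 (0.43). CDKN2B restrains division, so that the members that fell were not all genes that promote it.

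Of 20 listed PI3K-AKT genes, all paired, 4 rose and 6 fell at 24 h, 3 rose and 8 fell at 48 h, and 6 rose and 9 fell at 72 h, with medians of −0.11, −0.21 and −0.01. Over all genes, the shares that rose and fell were 17.4% and 17.2% at 24 h, 15.9% and 15.7% at 48 h, and 14.5% and 14.9% at 72 h (medians 0.03, 0.01 and 0), so that the members that rose at 24 h and 48 h were close in share to all genes. PTK2, the focal adhesion kinase gene, fell most at 72 h (−1.88), followed by SGK1 and BCL2 with the values above. ITGA4, an integrin gene (0.80), PIK3R1, the regulatory subunit of PI3K (0.47), and CCND3 rose most. The pairing was made through tables of genes selected on these samples, so these counts are not independent evidence of a direction.

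Over the 35 tested libraries, MYB's log2 CPM was set beside that of 10779 other genes that averaged 1 CPM or more. Pearson's r had a median of 0.043, and 247 genes reached 0.8 while 183 lay at −0.8 or lower. The libraries share passages, treatments and times, so these r values describe a common pattern and carry no test. Of the 878 genes with a symbol, STX7 (a syntaxin of endosomes) was most like MYB with r = 0.881 and Spearman's rho = 0.775, followed by TMEM263 (0.876 and 0.837), BCL2 (0.875 and 0.862), FANCC, a Fanconi anaemia gene of DNA repair (0.867 and 0.841), and MEI1 (0.861 and 0.845). After group and passage means were removed, r was 0.512 for STX7, 0.585 for TMEM263, 0.51 for BCL2, 0.671 for FANCC and 0.563 for MEI1, and over the 12 group means it was between 0.908 and 0.943.

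BCL2 followed MYB from 20 CPM at 24 h to 30 CPM at 72 h in DMSO, and stood at 17.9, 14.4 and 13.7 CPM with Ibr + AS at 24, 48 and 72 h. Among the 878 genes with a symbol, those most opposed to MYB were SPRYD4 (r = −0.903, rho = −0.814), DEF6, which encodes a guanine nucleotide exchange factor of lymphocytes (−0.873 and −0.812), and MFNG, a modifier of Notch receptors (−0.87 and −0.772). MFNG had its lowest mean, 135 CPM, in DMSO at 72 h, where MYB was highest, and its highest, 341 CPM, with Ibr + AS at 72 h, where MYB was lowest. Without the DMSO 72 h libraries, r was 0.836 for STX7, 0.814 for TMEM263, 0.876 for BCL2, 0.851 for FANCC and 0.775 for MEI1. It was −0.852 for SPRYD4, −0.832 for DEF6 and −0.801 for MFNG.

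**Figure D5:**
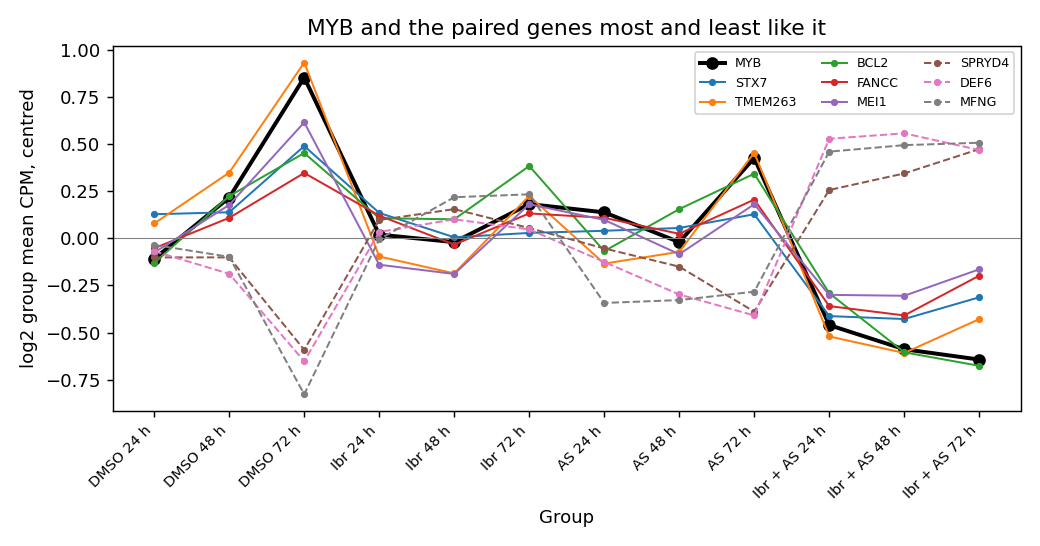
Log2 of the group mean CPM, centred on each gene's mean over the groups (y axis), for the 12 groups (x axis), with MYB in black, the 5 paired genes most like it as solid lines and the 3 most opposed to it as dashed lines. MYB is highest in DMSO 72 h, at 58.5 CPM, and lowest in the 3 Ibr + AS groups, between 20.7 and 23.5 CPM, and the dashed genes run the other way.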

How the data were processed

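Poly-A libraries (NEBNext Ultra II) of CLBL-1 were read as single ends of 75 bp on a NextSeq500. The authors mapped the reads to CanFam3.1 with STAR 2.7.5a (Ensembl release 101) and deposited raw counts per gene. Which strand column was kept is not given in the sources used here. For DMSO 24 h replicate 3, the title names p126 but the passage entry p128, and p128 was used.

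The tests used edgeR 4.0.16 (limma 3.58.1, R 4.3.3) on the counts as deposited. A gene entered a fit if its libraries summed to 2 reads or more. Libraries were scaled with TMM, and robust quasi-likelihood fits (glmQLFit with legacy = FALSE) modelled passage and group. Leaving out Ibr 72 h replicate 3, as the study did, 35 libraries with 18670 genes were fitted. Times within DMSO were compared in a fit of its 9 libraries alone (16468 genes). DEGs passed an adjusted p of 0.05 with an absolute log2 FC over 1. SEs are the absolute log2 FC over the root of F. Likeness used log2 CPM with a prior count of 1. Fits were tested on simulated data, which led to the newer quasi-likelihood in place of the older one.

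Passages pair the libraries by the labels. With group means subtracted, same-passage libraries had a median r of 0.092 (187 pairs) and others of −0.034 (374 pairs), and 0 pairs of libraries were identical. Alternatives were DESeq2 1.42.0, RLE factors, filterByExpr, every gene with 1 read, all 36 libraries, no 72 h libraries of replicate 3 (harvested apart from its earlier times, per the study's sample sheet), no replicate block, only the groups of a comparison, sequencing run as a term, the older quasi-likelihood (chosen after seeing the files) and each replicate left out.

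The gene and the lists were chosen with earlier results of these data known. Named genes were MYB, every paired member of the partner and neighbour lists, from the cell cycle and PI3K-AKT lists the called members with the 3 highest and the 3 lowest log2 FCs for Ibr + AS against DMSO at 72 h, and, among genes that have a symbol and average 1 CPM or more, the 5 with the highest and the 3 with the lowest Pearson r with MYB. Identifiers were paired with symbols only through parts of the study's supplementary tables.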

Additional observations from a re-analysis of the deposited data

Results flagged for a closer look

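The change of MYB against DMSO differed between 72 h and 24 h by a tested interaction for each treatment, with a difference in log2 FC of −0.82 for Ibr, −0.66 for AS and −1.14 for Ibr + AS. All 3 rest on the same DMSO libraries, in which MYB itself rose.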

How the results depend on the processing

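Over 30 MYB comparisons and their alternative fits, 362 of 387 values kept direction and call, 16 lost the call, 1 gained it and 8 reversed. In the 35-library fit, DMSO 48 h against 24 h (0.31) lost its call. With only the groups compared, Ibr + AS against DMSO at 24 h was −0.37 (adjusted p = 0.0746). Without the 72 h libraries of replicate 3, AS against DMSO at 72 h was −0.40. Ibr against AS at 48 h, near 0 in every fit and never called, reversed to 0.009786 with DESeq2, 0.009957 with RLE factors, 0.00541 with filterByExpr, 0.0002301 with all 36 libraries and 0.007677 with its own groups. Leaving out each replicate in turn gave these ranges: Ibr + AS against DMSO at 24 h −0.50 to −0.16, against Ibr at 24 h −0.55 to −0.34, departure at 24 h −0.78 to −0.61, Ibr against AS at 48 h −0.02244 to 0.02137, AS against DMSO at 72 h −0.47 to −0.38, Ibr 72 h against 24 h −0.03859 to 0.30, Ibr + AS 72 h against 24 h −0.49 to −0.02911, the effect at 72 h less that at 24 h −0.98 to −0.66 for Ibr and −0.73 to −0.60 for AS, and DMSO 48 h against 24 h 0.30 to 0.32. Fewer libraries enter these fits, and without replicate 1 or 2 Ibr at 72 h has 1 library, assumed to vary like the other groups. Without the replicate block no call changed, and Ibr + AS against DMSO at 72 h was −1.48 (adjusted p = 1.95e-13). With 180 to 922 MYB reads per library and 3 passages, SEs ran from 0.0751 to 0.172, which limits the changes that can be told apart from 0. The causes of these shifts were not tested.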
